A study of Homo sapiens with 4 samples.

Results

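The zinc finger genes of chromosome 19 were examined for acetylation of histone H3 at lysine 27 (H3K27ac), a mark of active promoters and enhancers. Members were the GENCODE protein-coding genes on chromosome 19 (hg38) with a symbol of ZNF followed by a number, with a trailing letter allowed. This rule took 246 of the 1476 coding genes on chromosome 19, and of 19970 coding genes in all. The rule used names and positions only and no measured value. The remaining 1230 coding genes of chromosome 19 served as the comparison.

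ChIP-seq peak lists came from 4 libraries, 2 each of MDA-MB-231 and Hs578T, which are established human lines of triple-negative breast cancer. By the labels, cells of both groups were starved for 8 h, given the cytokine TWEAK at 10 ng/ml for 48 h and then washed out for 72 h. A longer washout is given in the study's text. Untreated cells were not analysed here, so every value describes cells after washout and none describes an effect of TWEAK.

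Many of these genes encode KRAB zinc finger proteins. The zinc fingers read DNA, often in transposable elements, and the KRAB domain recruits TRIM28 and the methyltransferase SETDB1, which lay down repressive histone methylation. The family grew by tandem duplication, so that neighbouring genes in the clusters of chromosome 19 are often close relatives, promoters included. Fingers are usually encoded by the last exon.

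The lists did not carry equal information. On the autosomes and X, 209 peaks were listed for MDA-MB-231 replicate 1, of which 5 lay on chromosome 19. The lists labelled MDA-MB-231 replicate 2, Hs578T replicate 1 and Hs578T replicate 2 held 43353, 46330 and 44920 peaks, with 1639, 1729 and 1666 on chromosome 19. These are called the large lists, and triplets of values follow this order. By their marked promoters the large lists did not separate by line. The list labelled MDA-MB-231 replicate 2 shared 11420 genes with a promoter peak with Hs578T replicate 1, or 98.5% and 98.2% of the genes of either list. The replicates of Hs578T shared 11191, or 96.2% and 99.4%. By the rank of fold enrichment over members the replicates of Hs578T were closest, with a Spearman's rho of 0.951 against 0.922 and 0.907 for their pairs with MDA-MB-231 replicate 2. By the rank of peak width they were the least alike, at 0.901 against 0.919 and 0.917. Whether a library was mixed or mislabelled was not tested, and results are given per list by its label. Sequencing depth is unknown. No test between lines was made, since the smallest two-sided p that exact permutation of 2 against 2 libraries allows is 0.333.

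To show the sequences behind the results, 250 bases before the RefSeq start site are given for 8 promoters, 5′ to 3′ on the strand of the gene, with every CG dinucleotide in capitals. CG dinucleotides are the sites of DNA methylation in promoters. The first pair had the strongest promoter peaks of all members, and the second pair carried no promoter peak in any large list. ZNF492 lay farthest from any peak, and ZNF587B was the unmarked gene of the closest pair of marked and unmarked neighbours. The positions on GRCh38.p14 are chr19:58182811-58183060 (plus strand) for ZNF274, chr19:9675101-9675350 (minus) for ZNF562, chr19:22634074-22634323 (plus) for ZNF492 and chr19:57830049-57830298 (plus) for ZNF587B. ZNF98 and ZNF552 were also due under the rule and are named only.
ZNF274: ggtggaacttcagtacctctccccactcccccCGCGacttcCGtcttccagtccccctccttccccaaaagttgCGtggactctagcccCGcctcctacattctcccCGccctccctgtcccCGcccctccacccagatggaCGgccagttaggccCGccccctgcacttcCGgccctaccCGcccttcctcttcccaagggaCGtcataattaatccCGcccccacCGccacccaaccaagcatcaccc
ZNF562: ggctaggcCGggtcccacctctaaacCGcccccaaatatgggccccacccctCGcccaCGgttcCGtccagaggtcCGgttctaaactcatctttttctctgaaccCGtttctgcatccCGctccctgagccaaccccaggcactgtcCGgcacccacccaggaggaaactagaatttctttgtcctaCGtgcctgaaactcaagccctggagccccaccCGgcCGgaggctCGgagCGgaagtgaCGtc
ZNF492: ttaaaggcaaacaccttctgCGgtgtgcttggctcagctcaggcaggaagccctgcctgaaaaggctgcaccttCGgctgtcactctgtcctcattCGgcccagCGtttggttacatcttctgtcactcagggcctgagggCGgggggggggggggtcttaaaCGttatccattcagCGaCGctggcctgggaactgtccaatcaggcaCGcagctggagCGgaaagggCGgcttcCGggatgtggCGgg
ZNF587B: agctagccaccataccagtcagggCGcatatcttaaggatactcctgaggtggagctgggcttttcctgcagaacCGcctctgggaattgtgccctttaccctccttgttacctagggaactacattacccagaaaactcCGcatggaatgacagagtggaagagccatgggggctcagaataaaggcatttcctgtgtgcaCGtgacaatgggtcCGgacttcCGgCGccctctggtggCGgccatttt

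The remaining 4 promoters bracket the longest unmarked run of the chromosome and were chosen after their values were seen. ZNF43 and ZNF724 flank the run and carried strong peaks, whereas ZNF208 and ZNF730 are its first and last gene and carried none. Their positions are chr19:21836183-21836432 (minus), chr19:23250395-23250644 (minus), chr19:22010944-22011193 (minus) and chr19:23116775-23117024 (plus), in the order ZNF43, ZNF724, ZNF208 and ZNF730.
ZNF43: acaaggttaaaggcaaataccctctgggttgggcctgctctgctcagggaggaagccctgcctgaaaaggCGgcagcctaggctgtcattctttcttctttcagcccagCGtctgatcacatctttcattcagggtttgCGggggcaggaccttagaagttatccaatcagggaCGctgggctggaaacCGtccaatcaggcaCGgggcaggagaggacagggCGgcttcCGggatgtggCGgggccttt
ZNF724: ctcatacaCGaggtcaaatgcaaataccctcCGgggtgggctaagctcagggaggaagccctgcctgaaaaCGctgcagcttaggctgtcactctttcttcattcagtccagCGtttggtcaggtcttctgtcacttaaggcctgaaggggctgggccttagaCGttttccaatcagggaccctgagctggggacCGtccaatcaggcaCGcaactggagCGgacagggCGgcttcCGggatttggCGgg
ZNF208: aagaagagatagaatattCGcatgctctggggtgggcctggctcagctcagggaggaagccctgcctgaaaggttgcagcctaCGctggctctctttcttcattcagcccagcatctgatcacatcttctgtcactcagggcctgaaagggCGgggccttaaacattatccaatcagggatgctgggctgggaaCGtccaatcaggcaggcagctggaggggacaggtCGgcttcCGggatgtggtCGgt
ZNF730: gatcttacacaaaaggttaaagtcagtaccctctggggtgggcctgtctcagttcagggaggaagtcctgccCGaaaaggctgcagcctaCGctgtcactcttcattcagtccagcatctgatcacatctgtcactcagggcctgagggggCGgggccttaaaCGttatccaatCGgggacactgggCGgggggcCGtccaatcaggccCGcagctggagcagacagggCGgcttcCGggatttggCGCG

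A promoter was called marked in a list where a peak reached by at least 1 bp into the stretch from 1 kb before to 1 kb after the canonical start site. In the large lists 205, 207 and 198 of the 246 zinc finger promoters were marked, against a background of 53.8%, 54.3% and 52.4% of the other coding genes of chromosome 19. The percentages of the zinc finger genes were 83.3% (95% Wilson interval 78.2 to 87.5), 84.1% (79.1 to 88.2) and 80.5% (75.1 to 85.0). The difference was 29.5 percentage points (23.7 to 34.5), 29.8 (24.0 to 34.7) and 28.1 (22.1 to 33.4), so the intervals lay above 0 in each large list. Intervals cover counting error only, and neighbouring genes are not independent. In the list labelled MDA-MB-231 replicate 1 no member was marked, which allows a share of up to 1.22% by a limit of 3 counts and 1.54% by the Wilson interval, and the background was 0% as well. None of its 5 peaks on chromosome 19 lay within a member, and the nearest was 118 kb from the start site of ZNF546. The mean per line was 41.7% ± 58.9 (SD, n = 2) for MDA-MB-231, which is 83.3% without that list, and 82.3% ± 2.59 (SD, n = 2) for Hs578T.

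**Figure D1:**
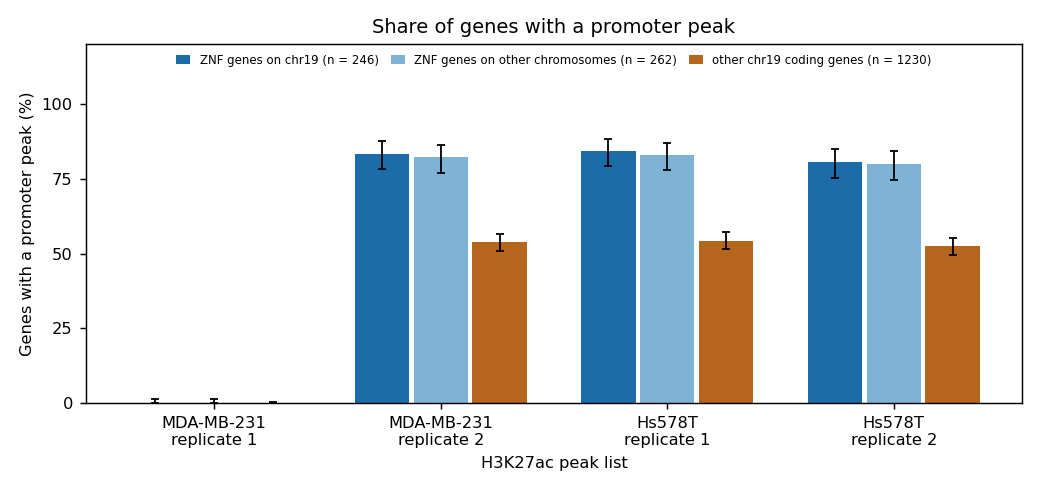
Bars give the percentage of genes with a promoter peak in each of the 4 peak lists for ZNF genes on chr19 (n = 246), ZNF genes on other chromosomes (n = 262) and other chr19 coding genes (n = 1230). Error bars are 95% Wilson intervals. In the 3 large lists both ZNF groups stood between 79.8% and 84.1%, the other genes stood between 52.4% and 54.3%, and MDA-MB-231 replicate 1 had no marked gene in any of the 3 groups.

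Across the 3 large lists, 196 members (79.7%) were marked in every list, against a background of 51.7%, or 636, of the other genes. A further 13 members were marked in 1 or 2 lists and are called mixed, and 37 members (15.0%) were marked in none and are called unmarked. Zinc finger genes elsewhere in the genome stood at the same level, with 207 of 262 (79.0%) marked in every large list. Among the comparison genes were other tandem families, of which 1 of 115 was marked in every large list. Among the 1097 genes left after these families and the other zinc finger names, 625 (57.0%) were marked, which was still below the zinc finger genes. Of the 18 other genes of chromosome 19 with names of C2H2 zinc finger classes, 10 (55.6%, interval 33.7 to 75.4) were marked.

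The marked zinc finger promoters carried narrow peaks. The median width of the strongest peak in the window was 1212 bp (95% interval of the median 1103 to 1361), 1281 bp (1161 to 1365) and 1218 bp (1100 to 1359) in the large lists. Other marked genes of chromosome 19 had medians of 1810, 1958 and 1734 bp, so the ratio was 0.670, 0.654 and 0.702. Peaks wider than 2 kb were found at 15.6%, 17.4% and 15.2% of marked members, against 44.0%, 48.8% and 41.9% of the other marked genes. Zinc finger genes on other chromosomes lay between, with medians of 1479, 1529 and 1497 bp.

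Fold enrichment over the background of the same library, which MACS2 averages across a broad peak, differed less. Its median was 7.53 (6.66 to 8.72), 7.03 (6.32 to 7.88) and 6.07 (5.50 to 6.73) at members, against 9.10 (8.75 to 9.71), 7.60 (7.08 to 8.11) and 6.55 (6.14 to 6.90) at other marked genes. The intervals of the 2 groups overlapped in both lists labelled Hs578T and did not in the list labelled MDA-MB-231 replicate 2. The ratios of the medians were 0.827, 0.925 and 0.927.

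**Figure D2:**
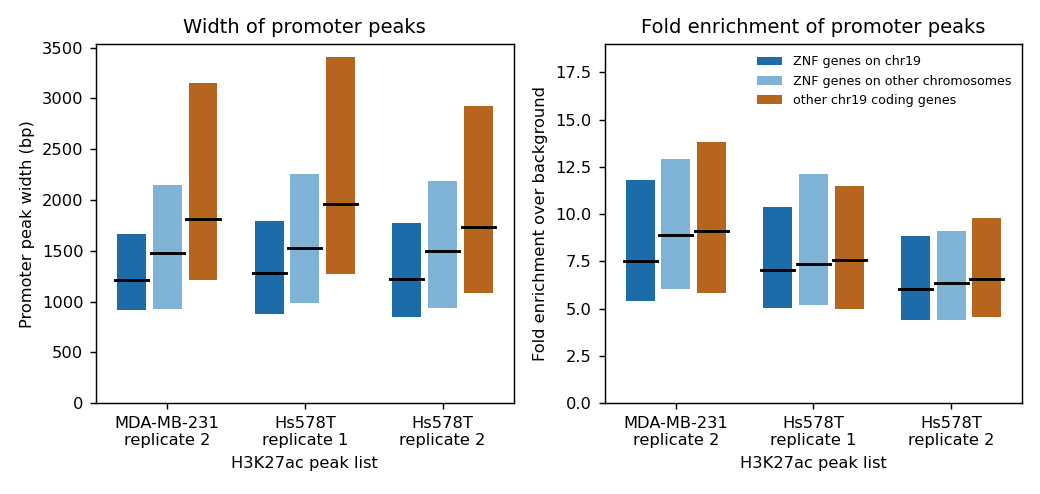
Boxes span the lower to the upper quartile and black lines give the median of promoter peak width (bp, left) and fold enrichment over background (right) at marked genes in the 3 large lists. ZNF genes on chr19 had the lowest median width in every list (1212, 1281 and 1218 bp), while the fold enrichment boxes of the 3 gene groups overlapped widely.

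The peaks were also lopsided. In the list labelled MDA-MB-231 replicate 2 they reached a median of 491 bp upstream and 691 bp downstream of the start site at members, whereas at other genes both sides were alike, with 889.5 and 878 bp. In the lists labelled Hs578T the members reached 543 and 488 bp upstream and 723 and 672 bp downstream. Other genes there reached somewhat farther upstream, with 906 and 868 bp against 848 and 792 bp downstream. The shortfall against other genes was thus larger on the upstream side. The peak covered the start site itself at 89.3%, 90.8% and 86.9% of marked members, close to 90.6%, 89.7% and 86.2% at other marked genes. At 2 kb upstream of the start site, 2.03%, 3.25% and 3.25% of all members were covered, against 11.5%, 11.8% and 10.8% of other genes.

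**Figure D3:**
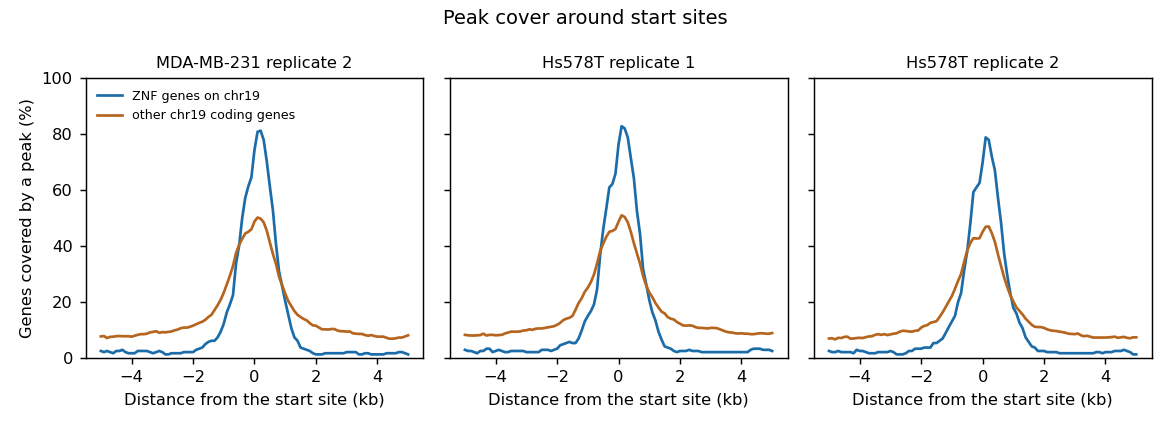
Lines give the percentage of genes covered by a peak at each distance from the start site (kb, negative upstream) for ZNF genes on chr19 and other chr19 coding genes, in the 3 large lists. ZNF genes were covered more often at the start site (74.4%, 76.4% and 69.9% against 48.8%, 48.7% and 45.1%) and less often 2 kb away on either side.

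Beyond the promoter the surroundings of zinc finger genes held few peaks. No other peak lay within 10 kb of the start site at 79.1%, 78.1% and 78.1% of the 196 members marked in every large list, against 49.8%, 48.6% and 49.1% of the 636 other such genes. These members also lay farther from the nearest other coding start site, at a median of 21489 bp against 8755 bp. Whether this spacing accounts for the contrast was not tested. Inside the 9 clusters described below, peaks outside the promoter windows of coding genes numbered 8.50, 9.22 and 9.16 per Mb. The rest of the chromosome, whose length includes the centromere, had 18.2, 19.9 and 19.1 per Mb. Promoters of noncoding genes were not set apart in these counts. The clusters differed, and that from ZNF575 to ZNF296 had more than the rest of the chromosome in every large list, with 24.0 and 24.6 per Mb in those labelled Hs578T, while that from ZNF557 to ZNF846 had 17.4, 18.9 and 18.5. The last exon, where the fingers are encoded, overlapped a peak in 9, 10 and 10 of the 238 members in which it lay over 2500 bp from the start site (3.78%, 4.20% and 4.20%). In other genes the share was 12.3%, 14.2% and 12.1%. Counting only peaks off the start sites of coding genes, the shares were 2.52%, 2.94% and 2.94% at members and 6.13%, 7.34% and 6.69% at other genes. Listed peaks thus seldom overlapped the last exon of these genes, and no count is given here for the rest of the gene body.

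ZNF274 carried the strongest promoter peak of all members. This KRAB and SCAN protein is known to bind the 3′ ends of other zinc finger genes and to recruit SETDB1 there. Its fold enrichment was 38.7, 36.7 and 26.2 and its width 2331, 2475 and 2693 bp. ZNF562 followed with 24.2, 23.2 and 16.9, and ZNF524 with 24.3, 22.7 and 16.8. ZNF865, ZNF701, ZNF699, ZNF880 and ZNF766 completed the highest 8, with mean fold enrichments between 18.0 and 19.9. The lowest 5 marked members were ZNF671, ZNF28, ZNF234, ZNF304 and ZNF230, with means between 3.25 and 3.44, so the marked promoters spanned about an order of magnitude. The rank correlations of fold enrichment given above describe how alike this order was between lists, in which the genes share each library's background.

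The widest peak lay at ZNF699, with 5031, 5232 and 5042 bp. ZNF792 followed with 5027, 5009 and 4911 bp, and ZNF526 with 4525, 4056 and 3973 bp. ZNF580 and ZNF581 shared the peak that came next, of 3841, 4138 and 3799 bp, since their start sites lie close together. The same held for 4 other pairs of members in each large list, ZNF490 with ZNF791, ZNF565 with ZNF146, ZNF829 with ZNF568 and ZNF571 with ZNF540, so the peaks of members are not all separate. With other coding genes counted too, 30, 30 and 29 of the 200, 202 and 193 peaks at members were shared with another gene. These lay at 35, 35 and 34 members, and such a peak cannot be assigned to either gene alone.

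A list of 15 members with known roles held 12 marked and 3 unmarked genes, the former count near the share of all members. ZNF91 and ZNF93, repressors of SVA and LINE-1 retrotransposons, were marked with fold enrichments of 12.2, 9.52 and 6.07 and of 14.1, 11.0 and 10.5. ZNF417 and ZNF587, which recognise the HERV-K retrovirus, had 6.32, 5.61 and 4.40 and 6.42, 7.26 and 4.50. ZNF675, an inhibitor of the signalling adaptor TRAF6, had 7.45, 10.7 and 8.84. The imprinted gene ZNF331 had 4.68, 4.72 and 4.33, and ZNF224, a transcriptional repressor, had 4.45, 3.20 and 3.49. ZNF649, ZNF765, ZNF43, ZNF430 and ZNF274 were the other marked genes. ZNF382 and ZNF471, both known as candidate tumour suppressors whose promoters are methylated in several cancers, and ZNF534 were unmarked, with no peak closer than 31059, 30188 and 30604 bp. DNA methylation was not measured here.

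The partners of KRAB proteins were marked as well. In a list of 18 genes of the repressor machinery, 17 were marked in every large list, against 55.6% of all coding genes. SETDB1 had fold enrichments of 9.28, 10.0 and 7.46, and CBX3, an HP1 protein that binds methylated histone H3, had 22.9, 18.4 and 14.6. TRIM28 was the exception and could not be read. Its start site lies 21633 to 21959 bp past the last listed peak of chromosome 19, and 4, 6 and 8 running numbers of peaks are absent from the large lists between that peak and the next listed sequence, so whether a peak was removed there cannot be told apart from its absence. No member lies past that last peak.

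The 13 mixed members had weak peaks, with fold enrichments from 2.32 to 5.02 that lay below the median of marked members in each list. ZNF14, ZNF223, ZNF324B, ZNF358, ZNF418, ZNF419, ZNF530 and ZNF585A were marked in the lists labelled MDA-MB-231 replicate 2 and Hs578T replicate 1 and not in Hs578T replicate 2. In this group the highest mean was that of ZNF585A, with fold enrichments of 3.68 and 5.02, and −log10 q-values of 4.50 and 9.38. ZNF211 was marked in both lists labelled Hs578T, at 3.91 and 3.36. ZNF577 and ZNF71 were marked in Hs578T replicate 1 alone, at 2.78 and 2.70. ZNF554 was marked in Hs578T replicate 2 alone, at 3.13, and ZNF599 in MDA-MB-231 replicate 2 alone, at 3.69. The pattern thus followed no division of the lists by line, and at canonical start sites ZNF211 alone was marked in both Hs578T lists and not in the large MDA-MB-231 list.

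Along the chromosome the members formed 9 clusters of at least 5 genes with neighbouring start sites at most 1 Mb apart, which held 235 of them. Within the clusters, consecutive members in the same state made up 72 runs, of which 38 were marked, 21 unmarked and 13 mixed. Of the marked runs 10 were of 1 gene, 8 of 2 genes, and 20 of 3 or more genes, with 161 genes in these last. Of the unmarked runs 16 were of 1 gene. Of 205 pairs of neighbours that were each marked or unmarked, 152 were both marked, 14 both unmarked and 39 one of each. Most of the 14 lay within a single run of 10 unmarked genes, described below. Whether neighbours were alike more often than the overall share of marked genes gives was not tested. The 11 scattered members were marked except for ZNF536, a gene known for expression in the nervous system, and ZNF541, known from the testis.

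The share of marked genes varied between clusters, but most of their intervals overlapped. All 25 genes from ZNF653 to ZNF791 were marked (100%, interval 86.7 to 100), which formed the longest marked run. Only the intervals of the clusters from ZNF101 to ZNF254 (54.2 to 82.5) and from ZNF628 to ZNF446 (60.4 to 82.6) lay wholly below that interval. From ZNF175 to ZNF331, 34 of 39 genes were marked, with a run of 14 genes from ZNF649 to ZNF528 that was followed by the unmarked pair ZNF534 and ZNF578. From ZNF565 to ZNF573, 22 of 26 were marked, and the unmarked ZNF382, ZNF875 and ZNF793 each stood alone. From ZNF575 to ZNF296, 18 of 24 were marked, and ZNF112, ZNF285 and ZNF229 formed an unmarked run of 3 genes across 91.8 kb. The largest cluster, from ZNF628 to ZNF446, had the most runs, 27, with 43 of its 59 genes marked, 6 mixed and 10 unmarked, and none of its unmarked runs exceeded 2 genes. In the smaller clusters 3 of 5 (ZNF554 to ZNF77), 12 of 15 (ZNF557 to ZNF846) and 4 of 5 genes (ZNF302 to ZNF792) were marked. Other coding genes inside the clusters were marked in 10 of 13 cases from ZNF653 to ZNF791 and in 3 of 15 from ZNF175 to ZNF331. In the clusters that begin with ZNF557, ZNF101, ZNF565, ZNF575 and ZNF628 the counts were 24 of 60, 2 of 3, 5 of 6, 15 of 31 and 22 of 50.

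**Figure D4:**
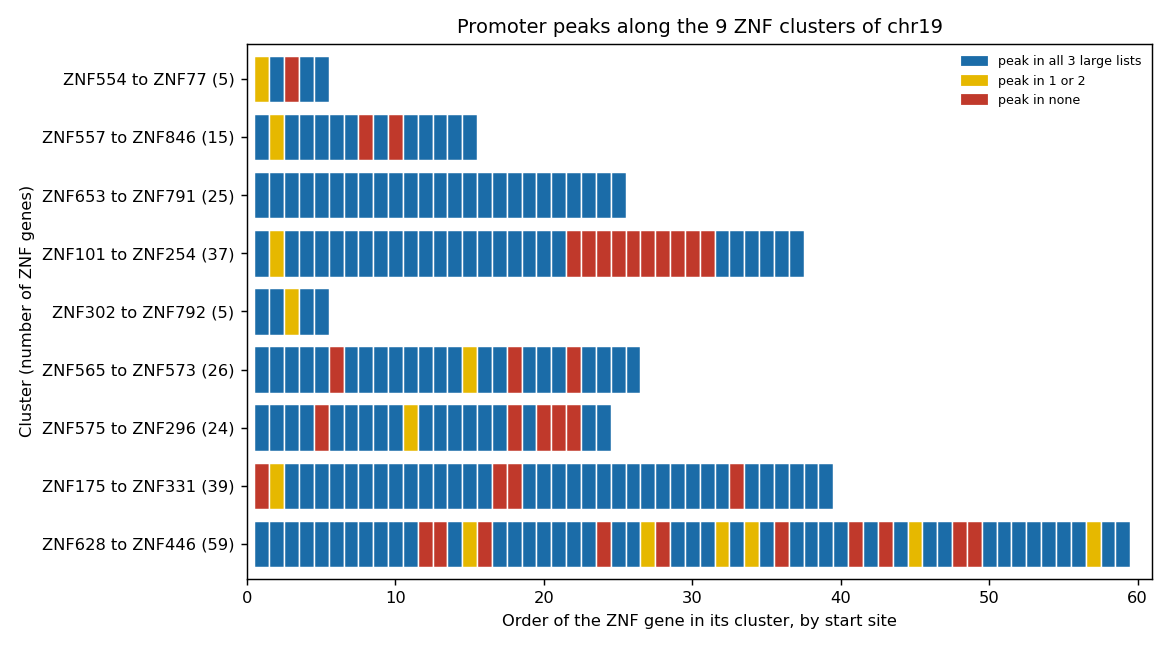
Each row is a cluster and each cell a ZNF gene in order of its start site, coloured by whether its promoter had a peak in all 3 large lists, in 1 or 2, or in none. The cluster from ZNF653 to ZNF791 was marked throughout, the cluster from ZNF101 to ZNF254 held an unbroken unmarked run of 10 genes, and the cluster from ZNF628 to ZNF446 alternated in 27 runs.

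The cluster from ZNF101 to ZNF254 was split by the longest unmarked run of the chromosome. A marked run of 19 genes from ZNF506 to ZNF43 was followed by 10 unmarked genes, ZNF208, ZNF257, ZNF676, ZNF729, ZNF98, ZNF492, ZNF99, ZNF723, ZNF728 and ZNF730, with start sites across 1106 kb (chr19:22010943-23117025, hg38). No peak of any kind lay between these start sites in any large list. The peak-free stretch ran for 1397 kb in each of them, from chr19:21852104 to 23249245 in the list labelled MDA-MB-231 replicate 2, from 21852159 to 23249386 in Hs578T replicate 1 and from 21852088 to 23248846 in Hs578T replicate 2. Its edges thus differed by less than 1 kb between lists. On the chromosome it was exceeded by a stretch of 3704 kb around the centromere and, in the lists labelled Hs578T, by one of 1417 kb, neither of which held a coding start site. The 10 unmarked genes were the only coding genes with a start site inside.

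The effect of the authors' removal of blacklisted peaks could be read from the running numbers that the peak caller gives to peaks. These numbers were continuous across it in all 3 large lists, and the reference held 0 unknown bases there. More broadly, 4, 1 and 1 running numbers were absent within chromosome 19, none of them in a stretch between peaks that held the start site of a member.

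The genes on either side were strongly marked. ZNF43 had fold enrichments of 10.8, 12.6 and 8.45 and ZNF724 of 13.7, 14.0 and 9.19, above the median of all members in each list. Their promoter sequences resembled those of 3 genes of the run, and the other genes of the run were not aligned. ZNF676, one of these, had a CpG observed/expected of 0.20. Over the 10 pairs among ZNF43, ZNF208, ZNF492, ZNF730 and ZNF724, global alignments of the printed 250 bases were identical at 73.7% to 80.2% of columns, against 42.6% to 48.6% in the 18 other pairs of printed promoters. All 5 shared the 13-base word cggcttccgggat, which ended 8 to 14 bases before the start site and holds on the reverse strand the letters CCGGAAG, bound by ETS factors. All 5 also shared gtccaatcaggc, which ended 42 to 48 bases before the start site and holds the letters CCAAT, bound by NF-Y. CpG observed/expected, the frequency of CG dinucleotides over that expected from C and G, had a median of 0.560 (0.510 to 0.630) in the run and 0.511 (0.486 to 0.551) in the cluster's 27 other genes, of which 26 were marked. The median distance to the nearest other coding start site was 89490 bp (41541 to 135905) in the run and 61546 bp (35064 to 95790) in the other genes, so these intervals overlapped.

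CpG content differed less between marked and unmarked members than between marked and unmarked other genes. Within 500 bp on either side of the start site, median CpG observed/expected was 0.713 (0.688 to 0.726) at marked and 0.648 (0.596 to 0.746) at unmarked members, and these intervals overlapped. At other genes of chromosome 19 the medians were 0.762 and 0.341. Of the 37 unmarked members 24 had a value of at least 0.6, with 18 between 0.6 and 0.8 and 6 at 0.8 and over. Of all 246 members 152 and 42 lay in these classes, so the share was lower at unmarked members. No member lay under 0.2 and 7 lay between 0.2 and 0.4, where 104 and 262 of the other genes lay. Of those 7 members 3 (42.9%, 15.8 to 75.0) were marked, against 11.8% (8.46 to 16.3) of the 262. Between 0.4 and 0.6, 75.6% (61.3 to 85.8) of 45 members were marked against 33.9% (27.2 to 41.5) of 165 other genes. Between 0.6 and 0.8 the shares were 82.9% (76.1 to 88.1) and 73.4% (68.9 to 77.5), and at 0.8 and over they were 78.6% (64.1 to 88.3) and 85.5% (81.1 to 89.1), both with overlapping intervals. The intervals of members and other genes were thus separate between 0.4 and 0.6. Members had the higher share between 0.6 and 0.8 and the lower share at 0.8 and over. Overlapping intervals there do not show that the groups were alike.

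**Figure D5:**
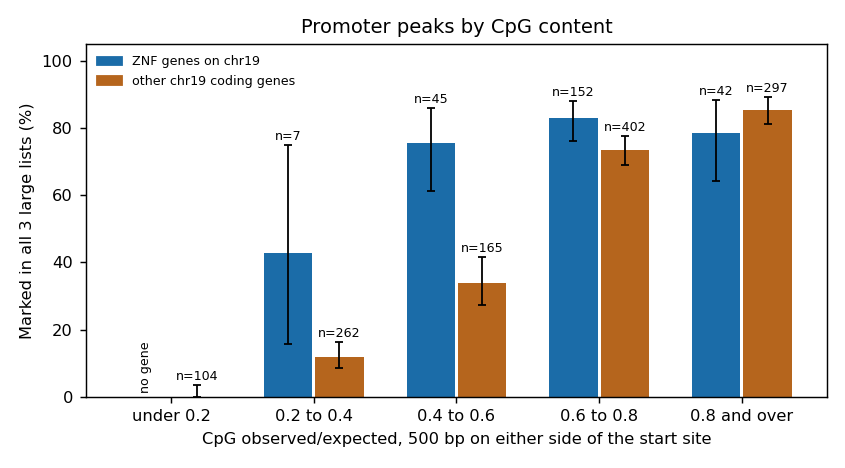
Bars give the percentage of genes marked in all 3 large lists by CpG observed/expected around the start site, with 95% Wilson intervals and the number of genes above each bar. Other chr19 coding genes rose from 0% to 85.5% with CpG content, whereas ZNF genes stood at 42.9% of 7 genes between 0.2 and 0.4 and between 75.6% and 82.9% in the 3 classes above.

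The smaller width of zinc finger peaks held at like CpG content from 0.6 upwards. Between 0.6 and 0.8, members had medians of 1151 (1069 to 1392), 1226 (1098 to 1357) and 1160 bp (1027 to 1365), and other genes had 1702 (1544 to 1783), 1764 (1612 to 1875) and 1554 bp (1459 to 1723). At 0.8 and over the medians were 1445 (1098 to 1777), 1509 (1171 to 1802) and 1557 bp (1004 to 1814) against 2232 (1914 to 2460), 2458 (2200 to 2611) and 2105 bp (1910 to 2336). Between 0.4 and 0.6 they were 1221 (991 to 1355), 1243 (1014 to 1364) and 1157 bp (926 to 1359) against 1339 (1066 to 1778), 1522 (1233 to 1805) and 1395 bp (1016 to 1589), and these intervals overlapped in every large list. For fold enrichment most intervals overlapped. Between 0.4 and 0.6 the medians were 8.65 (6.42 to 10.4), 9.15 (6.61 to 10.3) and 6.89 (5.30 to 8.83) at members against 5.62 (4.96 to 6.69), 5.12 (4.63 to 6.21) and 4.94 (4.05 to 6.06), with separate intervals in the list labelled Hs578T replicate 1 alone. At 0.8 and over they were 8.13, 7.50 and 6.10 against 10.3, 8.44 and 7.14, with intervals that overlapped in every large list.

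Promoter motifs were shared by marked and unmarked members. RefSeq promoters of 300 bases (250 before to 50 after the start site) were found for 216 of the 246 members and searched on both strands. The ETS letters CCGGAAG occurred in 45.1% (38.0 to 52.5) of 175 marked members and in 46.7% (30.2 to 63.9) of 30 unmarked ones, against 22.3% (18.9 to 26.1) of 507 marked other genes of chromosome 19 and 10.3% of all 35116 RefSeq promoters. CCAAT, added after the shared words were seen, occurred in 52.6%, 56.7%, 43.2% and 34.6% of the same sets. GGGCGG, bound by Sp1 and KLF factors, occurred in 70.3%, 66.7%, 81.1% and 45.0%. TATAAA, the TATA box, occurred in 2.29%, 0%, 5.92% and 11.5%. ATGGCGG, bound by YY1, occurred in 8.00%, 10.0%, 15.0% and 5.55%, and the AP-1 letters TGANTCA in 6.29%, 6.67%, 3.16% and 7.71%. The motifs searched do not contain one another, and a match is a description of letters and not of binding. In the printed sequences, ZNF274 and the unmarked ZNF587B held CCGGAAG and ZNF562 did not.

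Protein features told marked from unmarked members no better. A match to the KRAB box was found in 188 members, of which 153 (81.4%, interval 75.2 to 86.3) were marked, and of the 58 without a match 43 (74.1%, 61.6 to 83.7) were marked. Proteins with 10 or more C2H2 fingers were marked in 147 of 185 cases (79.5%) and those with fewer in 49 of 61 (80.3%). The arrangement of promoters differed more. All 13 members with a divergent coding start site within 1 kb were marked (interval 77.2 to 100), against 183 of 233 (78.5%, 72.8 to 83.3), and those intervals overlapped. At other genes the shares were 92.2% (86.3 to 95.7) and 47.0% (44.0 to 49.9).

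The 37 unmarked members were mostly far from any peak. The median distance to the nearest peak of any large list was 44154 bp, 18 of them lay over 50 kb away, and 4 lay within 10 kb. The 18 included all 10 genes of the run from ZNF208 to ZNF730, none closer than 131822 bp to a peak. Such distances are not given here for unmarked other genes. The farthest was ZNF492 at 614523 bp, followed by ZNF98, ZNF99 and ZNF729 of the same run, and by ZNF536 at 429413 bp. The nearest were ZNF175, at 1968 and 1494 bp in the lists labelled Hs578T and 116037 bp in MDA-MB-231 replicate 2, and ZNF329, at 3409 to 3420 bp in all large lists. Other start sites accounted for few of them: a start site of another GENCODE basic transcript was marked in every large list for ZNF875 and ZNF587B and in 2 lists for ZNF175, and 34 had no marked start site. ZNF667, with a CpG observed/expected of 0.99, stood next to ZNF471, with 0.84, in an unmarked pair of CpG-rich promoters. The closest neighbours in opposite states were ZNF552, marked at 4.45, 3.97 and 4.22, and ZNF587B, 15386 bp away, whose canonical start had no peak within 9803 bp.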

How the data were processed

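H3K27ac peak lists of 4 libraries were analysed. The authors trimmed reads with Trimmomatic, mapped them to hg38 with Bowtie2, called peaks per library with MACS2 against input, and removed blacklisted regions; deepTools is also named in the submitters' notes, and versions are not given in the sources used here. Each deposited peak has a score, 10 times its −log10 q-value without decimals, fold enrichment as a ratio over that library's background, and −log10 p and −log10 q as the authors' caller wrote them. Fold enrichment was compared within a list or by rank. The lowest deposited −log10 q in a large list was 1.00261. Depth is unknown.

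Gene models came from GENCODE release 44. The lists' sequence names were all found in the hg38 reference and no peak ran past an end. The strongest peak in a window gave width and fold. For values given per list, marked means in that list unless stated, and otherwise it means in all large lists. Percentages have Wilson intervals, differences Newcombe intervals and medians order-statistic intervals, all at 95%. Fingers and the KRAB box were matched in translated canonical coding sequence, since no protein table was used here. Python 3.11.15, numpy 2.4.6, scipy 1.17.1 and Biopython 1.88 were used, and peak assignment was tested on simulated data. Global alignments used a match score of 1.

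Members and gene lists were chosen with earlier results of these data known. Named genes were the 8 highest, 5 lowest and 5 widest marked members, all mixed members, the ends of the longest runs per cluster, 15 members with known roles, and the 5 unmarked members nearest to and farthest from a peak. The list of 25 other zinc finger genes of chromosome 19 had 22 found, of which 12 were marked and 10 had no peak in any large list, among them MZF1, which lies past the last listed peak of the chromosome. Alternatives covered start sites, windows, peak strength, background genes, width and fold rules, cluster gaps and left-out lists.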

Additional observations from a re-analysis of the deposited data

How the results depend on the processing

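Each of 24 values was recomputed under the alternatives, which gave 192 values. Of these 22 moved beyond the interval of the reported value, or for counts beyond 1.5 times of it. A reversal was looked for only in the differences between ZNF and other genes, and none of these reversed sign. Values of MDA-MB-231 replicate 1 stood at or near 0 throughout and say nothing about stability. For the mean per line the interval was the mean ± SD, within which each of 2 replicates must lie. The means per line therefore could not move by this rule.

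Keeping the strongest 50% of each list moved most. The share of marked ZNF genes became 58.1%, 61.8% and 54.9% in the large lists, and its excess over other genes 17.5, 20.5 and 16.6 percentage points. Marked in every large list were then 125 genes and in none 90. The longest marked run held 7 genes, and unmarked runs numbered 47. Median width rose to 1445, 1460 and 1457 bp and median fold enrichment to 10.2, 9.08 and 7.68. Where a peak had to cover the start site, 74.4%, 76.4% and 69.9% were marked and the longest marked run held 11 genes. With a window of 2.5 kb the difference in the list labelled MDA-MB-231 replicate 1 was -0.325 points. From 250 bp before to 50 bp after the start site, median CpG observed/expected was 0.778 at marked and 0.652 at unmarked members. This gap was wider than that reported above. Within 500 bp on either side, the strongest 50% of each list gave medians of 0.706 at marked and 0.715 at unmarked members. This reversed the order of 0.713 and 0.648 reported above. Where a peak had to cover the start site, the medians were 0.708 and 0.706. The longest unmarked run held 10 genes under each of the 10 alternatives run on it. No peak lay closer than 131822 bp to its canonical start sites, so no window or peak rule tried could have shortened it.

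Leaving out either replicate gave 0% or 83.3% for MDA-MB-231, whose mean of 41.7% thus rests on which list is kept, and of 80.5% or 84.1% for Hs578T. No paired analysis was possible because the results come from no test between groups. No read depth was used, so an absent peak cannot be told apart from one under its library's threshold.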
